A study of Arabidopsis thaliana with 4 samples.

Results

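The transcripts of 10 genes of the Arabidopsis microRNA and trans-acting siRNA (tasiRNA) machinery were compared between dividing and non-dividing leaf tissue. The genes are DCL1, HYL1, SE, HEN1, HST, AGO1, AGO7, AGO10, RDR6 and SGS3. They were picked out by their locus identifiers among the 33476 annotations for which expression was deposited. The choice was made with earlier results of these data known. All 10 had a value above 0 in every library. The study followed the histone variants H3.1 and H3.3 through leaf formation, and its mRNA-Seq measured poly-A RNA in the tissues used for chromatin. There were 4 libraries, 2 from dividing tissue, which is the meristem with its younger leaves, and 2 from non-dividing tissue, which is the 4 to 6 oldest leaves of a plant. All plants were Columbia, homozygous for a transgene in which a GFP fusion of HTR5 (H3.3) or of HTR13 (H3.1) is driven by the gene's own promoter. They were stratified for 5 days at 4 °C and harvested after 4 weeks at 20 to 22 °C under days of 8 h light and 16 h dark, and no untransformed plants were analysed here. One library of each tissue came from the HTR5-GFP line and the other from the HTR13-GFP line, so that replicate and line coincide and the p-values below measure only the spread between these libraries.

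MicroRNAs are cut from folded primary transcripts in the nucleus by DCL1, an RNase III enzyme that works with the double-stranded RNA binding protein HYL1 and the zinc finger protein SE. HEN1 methylates the ends of the small RNA duplex, the importin-like protein HST takes part in its export from the nucleus, and an ARGONAUTE protein holds the mature strand that finds the target. In the tasiRNA branch a microRNA-guided cut marks a TAS transcript, SGS3 and the RNA polymerase RDR6 make it double-stranded, and DCL4 cuts it into phased small RNAs. These pathways are known in leaves for setting polarity and the timing of organ formation through targets such as the auxin response factors and the HD-ZIP III genes. The small RNAs themselves were not measured here.

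The expression unit is FPKM (fragments per kilobase of an annotation, relative to all fragments mapped in the library), and FPKM summed to between 700884 and 715002 in the 4 libraries. The number of reads behind a value is not held in the table, so the counting error of single values is unknown. The 100 annotations with the highest FPKM accounted for 26.2% and 24.5% of all FPKM in dividing libraries, against 35.6% and 34.1% in non-dividing tissue. The meristem genes STM and KNAT1 were above 0 in dividing tissue and listed at 0 in non-dividing tissue, while WUS and CLV3 were listed at 0 in all 4 libraries. A set of 4 cell division markers summed to 77.2 and 74.7 FPKM in dividing tissue, against 3.39 and 4.35 FPKM in non-dividing tissue. Of markers for other cells or states, 4 photosynthesis genes summed to 26409 and 25669 FPKM in dividing tissue, against 35773 and 40798 FPKM in non-dividing tissue. Of these LHCB1.3 and RCA were called lower in dividing tissue, PSBS was called higher (465 against 376 FPKM on average) and RBCS1A in neither direction (limma). The 3 senescence genes gave 1446 and 1377 FPKM, against 2942 and 2387 FPKM, with SAG12 at 0 throughout. Nearly all of that sum was SEN1, called lower in dividing tissue (1409 against 2660 FPKM on average, limma). SAG13 (2.08 against 3.86 FPKM on average) was not called on deposited FPKM and was called lower after rescaling (limma). The 3 vascular genes gave 68.9 and 55.5 FPKM, against 154 and 150.4 FPKM, with SUC2 and APL called lower in dividing tissue and XCP1 called higher (14.4 against 6.49 FPKM on average, limma). PSBS and XCP1 were not called after rescaling. The 3 floral genes stayed at or below 0.471 FPKM. Dividing tissue therefore also held photosynthetic transcripts at a high level, and the part that these differences in cell make-up have in the results below was not tested. In whole tissue, a larger share of cells with a transcript and more transcript per cell cannot be told apart.

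On the deposited FPKM, 9 of the 10 genes rose in dividing tissue, 0 fell and 1 (DCL1) was past the threshold in neither direction. The test was limma on log2(FPKM + 1) with Benjamini-Hochberg adjustment at 0.05 over the 17967 annotations whose FPKM averaged 1 or more. At an unadjusted p under 0.05, the same fit put 9 of the genes higher and 1 lower. The share of all tested annotations at that unadjusted threshold was not counted, and it cannot be below the adjusted share. The same holds for the unadjusted counts of the other lists below. The background was high: 51.7% of all tested annotations were called higher and 18.2% lower. The median log2 fold change was 0.82 over the 10 genes and 0.38 over all tested annotations. A log2 fold change of at least 1 was found for 4 of the 10 genes (HYL1, HEN1, AGO1 and AGO10) and for 19.7% of all tested annotations. In 9 genes both dividing libraries lay above both non-dividing ones, as in 62.2% of annotations, and in DCL1 both lay below, as in 24.8%. With 2 libraries against 2, an exact two-sided permutation test of a single gene cannot give a p below 0.333.

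Because the middle of all annotations was shifted towards dividing tissue, all libraries were also rescaled, each by its median ratio to their mean profile. Rescaling moved the median log2 fold change of all tested annotations from 0.38 to 0.02, and the share of calls that were higher from 73.9% to 50.2%. After it, 7 of the 10 genes were higher, beside 31.0% of all tested annotations. DCL1 was lower, beside 30.7% of annotations, and SE and AGO7 were past the threshold in neither direction. The median of the 10 genes was then 0.46. With the line as a block, 9 genes were higher and 0 lower, beside 54.1% and 20.2% of annotations, and with rescaling and the block together 8 were higher and 1 lower, beside 33.3% and 33.2%. Only the direction of DCL1 thus stood apart from the rest of the machinery on both scales, and AGO10 had the largest change of the 10 on both.

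**Figure D1:**
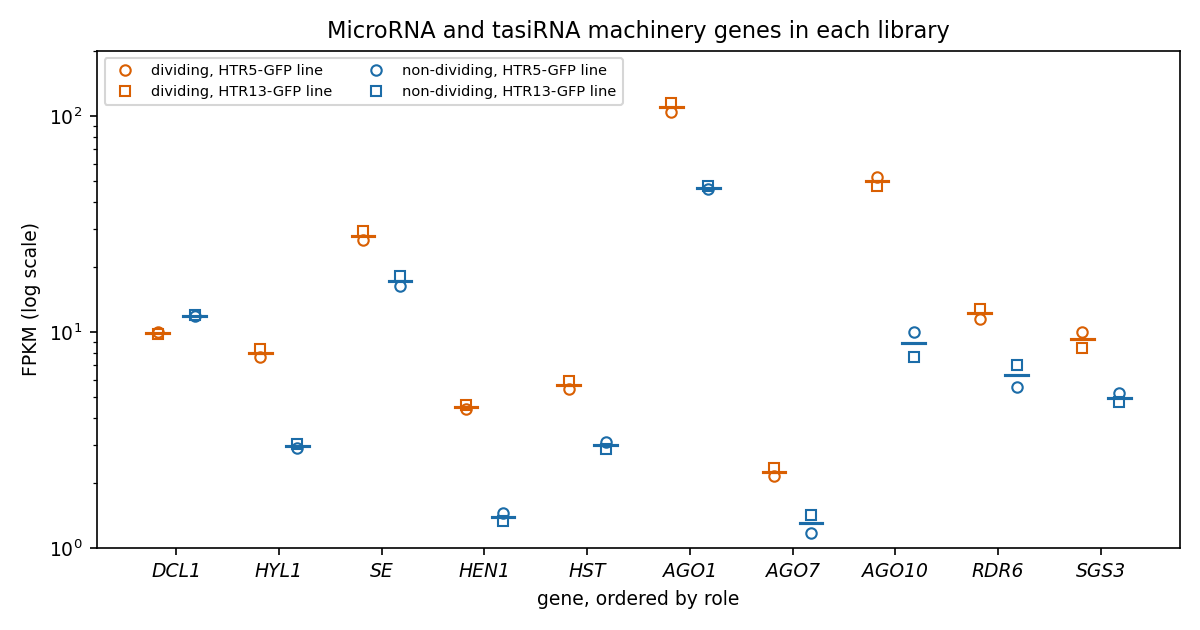
FPKM of each gene on a log axis, with one point per library (circles for the HTR5-GFP line, squares for the HTR13-GFP line) and a bar at the mean of each tissue. DCL1 is the one gene whose dividing libraries (10.0 and 9.75 FPKM) sit below its non-dividing libraries (11.8 and 11.9 FPKM), and AGO10 has the widest gap in the other direction.

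DCL1, the microRNA-processing RNase, was the only one of the 10 genes with less transcript in dividing tissue. It had 10.0 and 9.75 FPKM in dividing tissue, against 11.8 and 11.9 FPKM in non-dividing tissue. The dividing libraries were close to each other and below both non-dividing ones, in each line. The log2 fold change was -0.24 ± 0.08 (standard error), which missed the threshold on deposited FPKM (limma, Benjamini-Hochberg adjusted p = 0.0516). After rescaling it was -0.62 and passed (limma, adjusted p = 0.00317). On deposited FPKM, 22.1% of tested annotations had a log2 fold change below that of DCL1. Its place among all tested annotations was percentile 42.8 of FPKM in dividing tissue and percentile 56.7 in non-dividing tissue. The annotation of DCL1 (AT1G01040, TAIR9 chr1:23146-31227) contains the 207 bases of MIR838 and shares 58 bases at its end with PPA1, a pyrophosphatase gene. PPA1 had 67.5 and 75.3 FPKM in dividing tissue, against 50.4 and 56.5 FPKM in non-dividing tissue, the opposite order to DCL1. How fragments in the shared bases were assigned is not given in the sources used here, and their part in the DCL1 value was not tested.

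DCL1 is itself a known target of miR162, which is why both sequences are shown. The microRNA has its seed (bases 2 to 8) in capitals, and the DCL1 stretch has in capitals the bases that do not form a Watson-Crick pair with it, both 5′ to 3′ from RefSeq on TAIR10.1.

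miR162a-3p: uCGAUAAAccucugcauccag

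DCL1 site: cuggaugcagagguuGUAUUa

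The stretch lies across the junction of exons 12 and 13 of 20 in the DCL1 coding sequence, in 1 of 2 transcripts. Aligned without a gap it had 5 positions without a Watson-Crick pair, 1 of them G:U, and all of them opposite the seed. A match at least as close was found in 132 of 31460 genes (0.42%), so this ungapped match does not single DCL1 out. Pairing with a gap was not searched, so the known site may pair otherwise than printed. Among the listed microRNA loci only MIR162A and MIR838 passed the filter, and of these MIR162A was called higher. Its annotation is typed as protein-coding in the deposited data, unlike those of the other listed microRNA loci. The MIR162A annotation had 6.97 and 10.4 FPKM in dividing tissue, against 2.25 and 4.10 FPKM in non-dividing tissue. In each line the dividing library was the higher, with a log2 fold change of 1.23 ± 0.28 (limma, adjusted p = 0.0135, and 0.0425 after rescaling). Without the dividing library of the HTR13-GFP line the log2 fold change was 0.97 (limma, adjusted p = 0.131), and without that of the HTR5-GFP line it was 1.48 (adjusted p = 0.0662). MIR162B was listed at 0 in all 4 libraries.

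The partners of DCL1 moved the other way. HYL1, the double-stranded RNA binding partner, had 7.65 and 8.28 FPKM in dividing tissue, against 2.89 and 3.02 FPKM in non-dividing tissue. The groups were far apart, with a log2 fold change of 1.18 ± 0.10 (limma, adjusted p = 6.61e-04), and 0.85 after rescaling (adjusted p = 0.00187). HYL1 (AT1G09700, TAIR9 chr1:3137767-3140353) carries repeats: 75.2% of its 36-base exon stretches occur once in TAIR10.1, but 100% occur in no other place than HYL1, and for the other 9 genes at least 99.8% occur once. SE (AT2G27100, chr2:11572550-11576658), which helps DCL1 to cut at the right position, had 26.5 and 29.2 FPKM in dividing tissue, against 16.3 and 18.2 FPKM in non-dividing tissue. Its log2 fold change of 0.66 ± 0.10 was called (limma, adjusted p = 0.00378), but not after rescaling (0.27, adjusted p = 0.0612) or without the dividing library of the HTR13-GFP line (0.59, adjusted p = 0.0544). With rescaling and the line as a block, SE was called higher (limma, adjusted p = 0.042).

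Ratios within a library do not depend on scaling between libraries, and here they restate the levels above. The ratio of DCL1 to HYL1 was 1.31 and 1.18 in dividing tissue, against 4.08 and 3.94 in non-dividing tissue. DCL1 over SE was 0.379 and 0.333 in dividing tissue, against 0.722 and 0.656 in non-dividing tissue. FPKM is corrected for length, so these are ratios of levels, and in neither pair did the tissues overlap. That follows from the levels, since DCL1 and its partners moved in opposite directions without overlap, and it is no further evidence.

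HEN1 and HST act after processing. HEN1 (AT4G20910, TAIR9 chr4:11186084-11190691), the methyltransferase that protects the ends of small RNAs, had 4.38 and 4.57 FPKM in dividing tissue, against 1.46 and 1.33 FPKM in non-dividing tissue. Both lines showed a gap of similar size, and the log2 fold change was 1.19 ± 0.11 (limma, adjusted p = 7.86e-04), and 0.91 after rescaling (adjusted p = 0.00209). HEN1 over DCL1 was 0.437 and 0.469 in dividing tissue, against 0.123 and 0.112 in non-dividing tissue. HST (AT3G05040, chr3:1401271-1408197), the HASTY exportin, had 5.43 and 5.90 FPKM in dividing tissue, against 3.08 and 2.88 FPKM in non-dividing tissue. It rose by a log2 fold change of 0.74 ± 0.10 (limma, adjusted p = 0.00268), and by 0.42 after rescaling (adjusted p = 0.0205). Quantile normalization left HST at 0.28 (limma, adjusted p = 0.0597), short of the threshold.

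The ARGONAUTE genes among the 10 held both the highest and the lowest mean level. AGO1 (AT1G48410, TAIR9 chr1:17886098-17892586), the main effector of microRNAs, had the highest FPKM of the 10 genes in every library, with 104 and 115 FPKM in dividing tissue, against 45.9 and 47.1 FPKM in non-dividing tissue. The dividing libraries were alike and stood far above the non-dividing ones. The log2 fold change was 1.22 ± 0.09 (limma, adjusted p = 5.40e-04), and 0.81 after rescaling (adjusted p = 0.00163). AGO1 stood at percentile 94.4 of FPKM in dividing tissue and percentile 87.1 in non-dividing tissue.

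AGO1 is in turn a known target of miR168, and the pair is shown as the closest match among the 10 genes. Capitals mark the seed in the microRNA and, in the target, the bases without a Watson-Crick pair.

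miR168a-5p: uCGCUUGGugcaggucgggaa

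AGO1 site: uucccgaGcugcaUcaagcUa

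The site lies at chr1:17891529-17891549 on the minus strand of TAIR10.1, in exon 2 of 23 and in coding sequence, and is held by all 3 transcripts. It had 3 positions without a Watson-Crick pair, 1 of them G:U, and AGO1 was the only 1 of 31460 genes scanned with so few. The annotations of MIR168A and MIR168B were listed at 0 in all 4 libraries, so no value for this microRNA's precursors can be set beside AGO1.

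AGO10 (AT5G43810, TAIR9 chr5:17610972-17616797), which is known for binding miR165 and miR166 and keeping them from AGO1 in the meristem, changed most. It had 52.3 and 47.5 FPKM in dividing tissue, against 9.98 and 7.68 FPKM in non-dividing tissue. The tissues were far apart in both lines, and AGO10 was next to AGO1 in dividing tissue but after AGO1, SE and DCL1 in non-dividing tissue. The log2 fold change was 2.38 ± 0.14 (limma, adjusted p = 3.51e-04), and 2.00 after rescaling (adjusted p = 6.54e-04). On deposited FPKM, 97.7% of tested annotations had a lower log2 fold change. The ratio of AGO10 to AGO1 was 0.503 and 0.414 in dividing tissue, against 0.217 and 0.163 in non-dividing tissue, again without overlap. The meristem gene STM, at 20.7 and 21.6 FPKM in dividing tissue and 0 in both non-dividing libraries, moved with AGO10, and its cells' part in the AGO10 value was not tested. AGO10 was not at 0 in mature leaves.

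AGO7 (AT1G69440, TAIR9 chr1:26101059-26105166), the ARGONAUTE that takes up miR390 and starts tasiRNA formation from TAS3, had the lowest mean FPKM of the 10 genes in both tissues. It had 2.16 and 2.33 FPKM in dividing tissue, against 1.18 and 1.42 FPKM in non-dividing tissue. The tissues did not overlap, but the change was close to the median of all annotations. The log2 fold change of 0.50 ± 0.12 was called on deposited FPKM (limma, adjusted p = 0.018) and not after rescaling (0.24, adjusted p = 0.145), and quantile normalization gave -0.01 (adjusted p = 0.934). The call was also lost without either dividing library (adjusted p = 0.0523 without the HTR5-GFP line and 0.0669 without the HTR13-GFP line, limma) or without the non-dividing library of the HTR5-GFP line (adjusted p = 0.0554). AGO7 over AGO1 was 0.0207 and 0.0203 in dividing tissue, against 0.0256 and 0.0302 in non-dividing tissue, so relative to AGO1 the order was turned round.

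RDR6 and SGS3, which together turn cut transcripts into double-stranded RNA, moved by similar amounts. RDR6 (AT3G49500, TAIR9 chr3:18349193-18353205), the polymerase, had 11.5 and 12.8 FPKM in dividing tissue, against 5.58 and 7.002 FPKM in non-dividing tissue. SGS3 (AT5G23570, chr5:7943124-7946050), which stabilises the cut template, had 10.0 and 8.46 FPKM in dividing tissue, against 5.20 and 4.71 FPKM in non-dividing tissue. Neither gene overlapped between tissues. The log2 fold change of RDR6 was 0.86 ± 0.13 (limma, adjusted p = 0.00376), and 0.49 after rescaling (adjusted p = 0.0244). That of SGS3 was 0.78 ± 0.12 (limma, adjusted p = 0.00356), and 0.42 after rescaling (adjusted p = 0.0338). RDR6 missed the threshold without the dividing library of the HTR5-GFP line (limma, adjusted p = 0.051) or of the HTR13-GFP line (adjusted p = 0.0674), and SGS3 missed it under quantile normalization (0.37, adjusted p = 0.0562). The ratio of RDR6 to SGS3 was 1.15 and 1.51 in dividing tissue, against 1.07 and 1.49 in non-dividing tissue, and these overlapped.

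**Figure D2:**
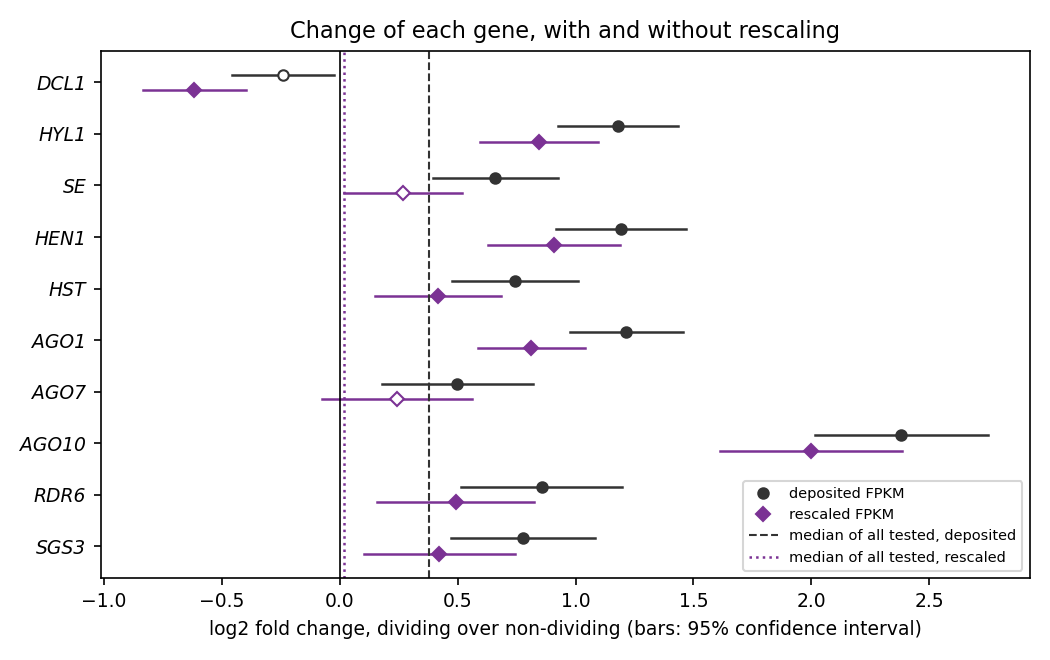
Log2 fold change of each gene (dividing over non-dividing tissue) with its 95% confidence interval, from deposited FPKM (circles) and rescaled FPKM (diamonds), filled where the adjusted p was under 0.05. The vertical lines mark 0 and the medians of all tested annotations (0.38 deposited, 0.02 rescaled). DCL1 is on the negative side on both scales, AGO10 is at 2.38 and 2.00, and SE and AGO7 lose their call with rescaling.

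The order of the levels differed little between tissues apart from DCL1 and AGO10. In dividing tissue the mean FPKM ran from AGO1 through AGO10, SE, RDR6, DCL1, SGS3, HYL1, HST and HEN1 to AGO7, and only SGS3 overlapped the gene above it. In non-dividing tissue it ran from AGO1 through SE, DCL1, AGO10, RDR6, SGS3, HST, HYL1 and HEN1 to AGO7, with HYL1 overlapping HST and AGO7 overlapping HEN1. The 10 genes summed to 234 and 244 FPKM in dividing tissue, against 103 and 105 FPKM in non-dividing tissue. DCL1 was 4.29% and 4.00% of that sum in dividing tissue, against 11.4% and 11.3% in non-dividing tissue.

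The annotations with the most similar FPKM over the 4 libraries were found by Euclidean distance of log2(FPKM + 1) among tested protein-coding annotations. Nearest to AGO10 were AT4G21650 (distance 0.0965), AT3G11600 (0.257) and Cpn60beta2 (0.269). Nearest to AGO1 were AT3G47370 (0.124), MTO2 (0.136) and AT5G20890 (0.16). With 4 libraries, distances of this size mean only that level and tissue difference were alike.

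The other members of the protein families show how the 10 genes sit among their relatives. Of 19 relatives, 13 could be tested, and 12 rose, 0 fell (0 also at an unadjusted p under 0.05, limma) and 1, AGO2, did neither, beside 51.7% higher and 18.2% lower among all tested annotations. After rescaling 8 were higher and 1, AGO2, lower, beside 31.0% and 30.7%. The median log2 fold change was 0.96 (0.63 rescaled). The largest fitted changes on the log2(FPKM + 1) scale were those of DRB3, a double-stranded RNA binding protein of the HYL1 family, and AGO4, the ARGONAUTE of RNA-directed DNA methylation. DRB3 had 26.5 and 26.4 FPKM in dividing tissue, against 3.34 and 3.36 FPKM in non-dividing tissue (log2 fold change 2.66 ± 0.08, limma, adjusted p = 1.44e-04). AGO4 had 16.5 and 16.6 FPKM in dividing tissue, against 3.33 and 3.23 FPKM in non-dividing tissue (2.03 ± 0.09, limma, adjusted p = 2.11e-04). Both remained called after rescaling, at 2.30 and 1.68. Among relatives above 0 in non-dividing tissue, RDR3, an RNA polymerase relative of RDR6, led by the plain ratio of mean FPKM with 10.4. DRB3 followed with 7.89 and AGO4 with 5.04. The RDR3 ratio rests on low non-dividing values (0.257 and 0.43 FPKM). RDR4, AGO5 and AGO9 were listed at 0 in non-dividing tissue and have no such ratio. The smallest changes that passed were those of DRB2 (0.37, limma, adjusted p = 0.0133) and DRB4 (0.47, adjusted p = 0.00572). After rescaling DRB2 was at -0.01 and DRB4 at 0.10, and neither passed, nor did they without either dividing library.

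The DICER-LIKE and ARGONAUTE genes below were singled out after their values had been seen. DCL4, which makes the phased tasiRNAs, had 13.7 and 14.8 FPKM in dividing tissue, against 2.99 and 3.64 FPKM in non-dividing tissue. DCL2 and DCL3, which make siRNAs of other lengths, rose by log2 fold changes of 0.99 and 1.26, and DCL4 by 1.83 ± 0.12 (limma, adjusted p = 3.87e-04). All of the DICER-LIKE genes but DCL1 thus rose, on both scales. The ratio of DCL1 to DCL4 was 0.731 and 0.659 in dividing tissue, against 3.95 and 3.27 in non-dividing tissue. DCL1 held 25.2% and 24.8% of the summed FPKM of the family in dividing tissue, against 56.9% and 53.6% in non-dividing tissue. The sum itself was 39.8 and 39.4 FPKM in dividing tissue, against 20.7 and 22.2 FPKM in non-dividing tissue. DCL4 over RDR6, the enzymes that act one after the other on TAS transcripts, was 1.19 and 1.16 in dividing tissue, against 0.535 and 0.52 in non-dividing tissue.

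**Figure D3:**
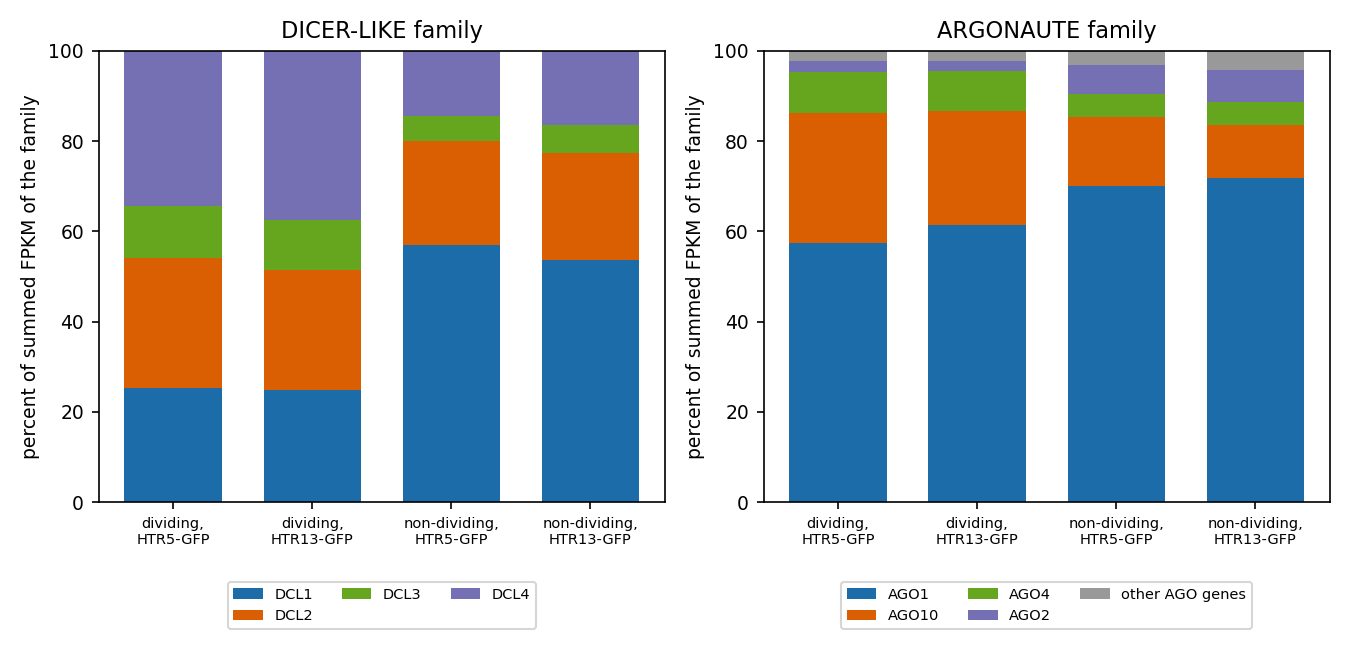
Share of each gene in the summed FPKM of its family, one bar per library, for the DICER-LIKE family (left) and the ARGONAUTE family (right). DCL1 is 25.2% and 24.8% of its family in the dividing libraries and 56.9% and 53.6% in the non-dividing ones, and AGO10 is 28.9% and 25.4% of its family against 15.2% and 11.7%.

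The ARGONAUTE family summed to 181 and 187 FPKM in dividing tissue, against 65.6 and 65.5 FPKM in non-dividing tissue. AGO1 was 57.4% and 61.3% of it in dividing tissue, against 70.1% and 71.9% in non-dividing tissue. AGO10 was 28.9% and 25.4% of it in dividing tissue, against 15.2% and 11.7% in non-dividing tissue. AGO2, which is known for antiviral defence and is a target of miR403, did not share in the increase. It had 4.30 and 4.25 FPKM in dividing tissue, against 4.32 and 4.77 FPKM in non-dividing tissue (log2 fold change -0.07 ± 0.10, limma, adjusted p = 0.561, and -0.40 after rescaling, adjusted p = 0.0205). The miR403 match is shown since it was the closest of all the pairs printed, with the same use of capitals.

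miR403-3p: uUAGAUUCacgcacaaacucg

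AGO2 site: Ggaguuugugcgugaaucuaa

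It lies in the 3′ UTR, in exon 3 of 3, with 1 position without a Watson-Crick pair, and AGO2 was the only 1 of 31460 genes that close. The MIR403 annotation was listed at 0 in all 4 libraries.

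The biogenesis cofactors are proteins that help DCL1 and its partners. Of 20 biogenesis cofactors, 16 rose, 0 fell (0 at an unadjusted p under 0.05, limma) and 4 did neither (CPL1, CPL2, MOS2 and NOT2B), beside 51.7% of all tested annotations higher and 18.2% lower. The median log2 fold change was 0.85. After rescaling 11 were higher and 1, CPL2, lower, beside 31.0% and 30.7%, with a median of 0.46. RACK1B and RACK1C, scaffold proteins that bind SE, led the list. RACK1B had 47.2 and 63.9 FPKM in dividing tissue, against 17.0 and 16.04 FPKM in non-dividing tissue (log2 fold change 1.67 ± 0.16, limma, adjusted p = 9.25e-04). RACK1C rose by 1.66 ± 0.18 (limma, adjusted p = 0.00122). NOT2A, at 0.40, and RCF3, at 0.44, were the smallest changes that passed, and neither passed after rescaling or without either dividing library, nor did RCF3 without the non-dividing library of the HTR5-GFP line. MOS2 was called higher, at 0.38, without the non-dividing library of the HTR13-GFP line (limma, adjusted p = 0.028). The phosphatases CPL1 and CPL2, which act on HYL1, had log2 fold changes of 0.06 and 0.07 and of -0.29 and -0.30 after rescaling.

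A further list held proteins that act with AGO1, turn small RNAs over or assist the tasiRNA branch. Of 24, 19 rose, 0 fell (0 at an unadjusted p under 0.05, limma) and 5 did neither (HSP90.1, TRN1, URT1, SDE5 and TEX1), beside 51.7% of all tested annotations higher and 18.2% lower. The median log2 fold change was 0.52. After rescaling 10 were higher and 2, TRN1 and TEX1, lower, beside 31.0% and 30.7%, with a median of 0.12, against 0.02 for all tested annotations. SDN3 and SDN1, exonucleases that degrade mature microRNAs, rose most. SDN3 had 22.3 and 25.0 FPKM in dividing tissue, against 6.98 and 7.91 FPKM in non-dividing tissue (1.55 ± 0.11, limma, adjusted p = 4.66e-04). SDN1 rose by 1.52 ± 0.12 (limma, adjusted p = 5.55e-04). SQN, a cyclophilin that assists AGO1 loading, rose by 1.17 and FBW2, an F-box protein that lowers AGO1, by 0.94 (limma, adjusted p = 0.0037 and 0.00154). SUO, at 0.30, and the decapping enzyme DCP2, at 0.32, were the smallest that passed, and their sign turned with rescaling (-0.09 and -0.06). Both passed only with all 4 libraries or without the non-dividing library of the HTR13-GFP line. TEX1 and SDE5, both known for tasiRNA formation, had log2 fold changes of -0.18 and 0.12.

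**Figure D4:**
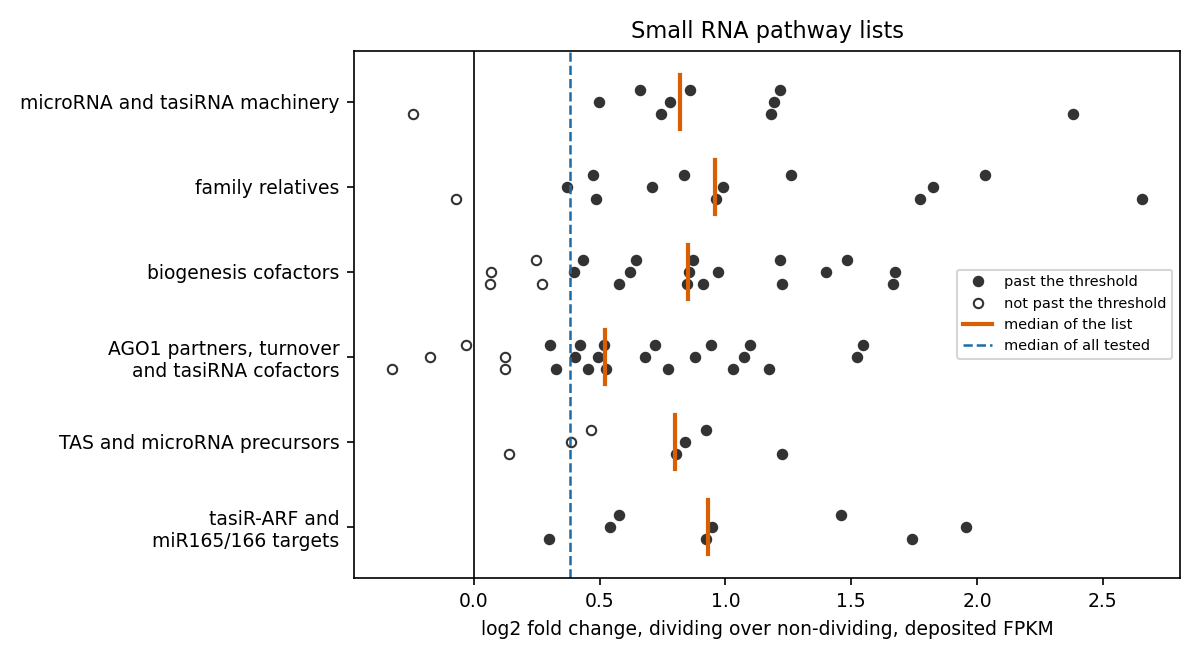
Log2 fold change (dividing over non-dividing tissue, deposited FPKM) of each tested gene, by list, filled where the adjusted p was under 0.05, with the median of each list and of all tested annotations (0.38). Every list median lies to the right of the dashed line, from 0.52 for the AGO1 partners to 0.96 for the family relatives.

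Most listed precursor loci had no value above 0. Of 27 TAS and microRNA loci, 20 were listed at 0 in all 4 libraries, among them all listed loci of miR165, miR166, miR168 and miR390. The microRNA annotations at 0 spanned only 86 to 191 bases, against 207 for MIR838 and 1338 for MIR162A. TAS3B, TAS3C and TAS4, also at 0, spanned 496 to 1155 bases. The part of annotation length in these zeros was not tested, and a 0 does not show that a precursor was absent. Of the 7 tested, 4 rose (TAS1A, TAS2, TAS3A and MIR162A), 0 fell (0 at an unadjusted p under 0.05, limma) and TAS1B, TAS1C and MIR838 did neither, a share of higher calls near the 51.7% of all tested annotations. After rescaling 1, MIR162A, was called, beside 31.0% higher among all tested annotations. With rescaling and the line as a block TAS1A was called too (0.48, limma, adjusted p = 0.0122), and under quantile normalization MIR162A was not (0.80, adjusted p = 0.058). TAS3A, the source of the tasiRNAs against auxin response factors, had 17.9 and 20.4 FPKM in dividing tissue, against 12.6 and 8.22 FPKM in non-dividing tissue. Its log2 fold change was 0.84 ± 0.21 (limma, adjusted p = 0.0174), and it was 0.46 after rescaling (adjusted p = 0.119). Without the dividing library of the HTR13-GFP line TAS3A was at 0.75 (limma, adjusted p = 0.162), and without that of the HTR5-GFP line at 0.93 (adjusted p = 0.113), so the calls were lost at a similar fold change. It was called at 0.56 without the non-dividing library of the HTR13-GFP line (limma, adjusted p = 0.0249). TAS2 had 13.6 and 20.8 FPKM in dividing tissue, against 10.9 and 6.44 FPKM in non-dividing tissue, and rose by 0.92 ± 0.30 (limma, adjusted p = 0.0409). Its call was lost at 1.21 without the dividing library of the HTR5-GFP line (limma, adjusted p = 0.0979), at 0.63 without that of the HTR13-GFP line (adjusted p = 0.265) and at 0.58 without the non-dividing library of the HTR13-GFP line (adjusted p = 0.143). TAS1A rose by 0.80 ± 0.17 (limma, adjusted p = 0.0102), and its adjusted p was 0.0617 without the dividing library of the HTR13-GFP line and 0.05 without the non-dividing library of the HTR5-GFP line. TAS1C was at 0.38 ± 0.17 and not called (limma, adjusted p = 0.0961). TAS1B was at 0.47 ± 0.32 (limma, adjusted p = 0.242), but at 0.93 and called without the non-dividing library of the HTR5-GFP line (adjusted p = 0.0126) and at 0.00 without that of the HTR13-GFP line (adjusted p = 0.978).

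The 8 listed targets of the TAS3 tasiRNAs and of miR165 and miR166 all rose on deposited FPKM, beside 51.7% of all tested annotations, and 5 did after rescaling, beside 31.0%. The median log2 fold change was 0.93 (0.56 rescaled). Among the HD-ZIP III genes, transcription factors of the meristem and the upper leaf side, REV had 18.4 and 19.9 FPKM in dividing tissue, against 4.13 and 4.26 FPKM in non-dividing tissue (1.96 ± 0.09, limma, adjusted p = 2.42e-04). CNA had 40.2 and 36.5 FPKM in dividing tissue, against 11.8 and 9.81 FPKM in non-dividing tissue (1.74 ± 0.12, limma, adjusted p = 4.41e-04). PHB rose by 1.46 ± 0.09 (limma, adjusted p = 3.90e-04). These were also called after rescaling. PHV (0.58) and ATHB8 (0.54) rose less, were not called after rescaling, and narrowly missed the threshold without the dividing library of the HTR13-GFP line (limma, adjusted p = 0.0521 and 0.0633). The order REV, CNA, PHB, PHV, ATHB8 is that of the deposited changes, and all of them carry nearly the same site, shown here for REV and PHB beside both microRNAs with the same use of capitals against miR165a-3p.

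miR165a-3p: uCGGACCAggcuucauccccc

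miR166a-3p: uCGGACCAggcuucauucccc

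REV site: CUgggaugaagccugguccgG

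PHB site: UUgggaugaagccugguccgG

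The microRNAs share their seed. Both sites cross the junction of exons 4 and 5 in coding sequence and had 3 positions without a Watson-Crick pair, 1 of them G:U, and 4 of 31460 genes (0.013%) had as few.

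Among the auxin response factors, which promote lower-side identity and phase change in the leaf, ARF3 had 16.7 and 16.3 FPKM in dividing tissue, against 7.50 and 8.72 FPKM in non-dividing tissue (0.95 ± 0.10, limma, adjusted p = 0.00136). ARF4 rose by 0.92 ± 0.11 (limma, adjusted p = 0.00188), and both were called after rescaling. ARF2 had 137 and 136 FPKM in dividing tissue, against 105 and 117 FPKM in non-dividing tissue, and rose by 0.30 ± 0.09 (limma, adjusted p = 0.0381). That call was lost on leaving out any library but the non-dividing one of the HTR13-GFP line, with an adjusted p between 0.111 and 0.14 (limma), and after rescaling the value was -0.11.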

How the data were processed

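The authors mapped mRNA-Seq reads (10 µg of total RNA, poly-A selected) onto TAIR9 with TopHat 1.2.0, Bowtie 0.12.7 and SAMtools 0.1.13, and deposited the FPKM that Cufflinks 0.9.3 gave per annotation. The submitters' processing notes also name CASAVA 1.7. FPKM values were not multiples of 1 read (of 9459 annotations under 10 FPKM, only 8 had the same ratio between dividing libraries), so no count test was run.

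Samples were grouped from the GEO labels. Replicate numbers coincide with the transgenic line. Libraries with the same number deviated together from the means of their tissues (Pearson 0.257, Spearman 0.241, 17967 annotations), and the line was used as a block in an alternative. Computation used Python 3.11.15, numpy 2.4.6, pandas 2.3.3, matplotlib 3.10.9, R 4.3.3 and limma 3.58.1 (lmFit, eBayes with a trend, two-sided) on log2(FPKM + 1), so changes of low genes are understated. The filter was a mean FPKM of at least 1. For rescaling, ratios to the average of the 4 libraries were taken over 18569 annotations, and their median in a library was its divisor. The limma fit, but not the rescaling, was tested on simulated data.

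The 10 genes and all lists were chosen with earlier results of these data known. Named were the 10 genes, the 2 highest and 2 lowest called changes of each list of relatives, cofactors and partners, every TAS or microRNA locus above 0, every listed target, and the 3 annotations nearest to each of the 2 genes with the largest log2 fold change of deposited FPKM (AGO10 and AGO1; after rescaling HEN1 and HYL1 exceeded AGO1). Other genes (DCL2, DCL3, DCL4, AGO2, SQN, FBW2 and those in neither direction) were chosen after their values were seen. Alternatives covered pseudocounts of 0.1 and 0.5, no filter, a mean FPKM of at least 5, the block, rescaling, both together, quantile normalization, nuclear protein-coding annotations only, and leaving out each library.

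Sequences and exons come from RefSeq on TAIR10.1, and gene coordinates from the files (TAIR9, counted from 1). All 32693 annotations found in both builds were on the same chromosome. The best ungapped match to each microRNA was searched on the sense strand of every transcript. ChIP-Seq data were not used here.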

Additional observations from a re-analysis of the deposited data

Results flagged for a closer look

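4 of the named genes moved in opposite directions in the 2 transgenic lines, on the log2(FPKM + 1) scale and dividing over non-dividing tissue; with 1 library of each tissue per line, the difference between lines was not tested. HSP90.1, a heat-inducible chaperone that assists AGO1 loading, was at -0.86 in HTR5-GFP plants and 0.21 in HTR13-GFP plants. TAS1B was at -0.09 in HTR5-GFP plants and 1.03 in HTR13-GFP plants. MIR838, which lies inside DCL1, was at -0.51 in HTR5-GFP plants and 0.79 in HTR13-GFP plants. TRN1, an importin, was at -0.07 in HTR5-GFP plants and 0.01 in HTR13-GFP plants. None of the 4 was called on deposited FPKM. All 10 genes of the machinery moved the same way in both lines. So does any annotation whose tissues do not overlap, which was 62.2% of tested annotations on the higher side and 24.8% on the lower.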

How the results depend on the processing

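The count of annotations called higher in dividing tissue was 9282 and of those called lower 3271, and these became 5562 and 5522 after rescaling, 5770 and 5243 under quantile normalization, and 5986 and 5963 after rescaling with the replicate block. Leaving out 1 library gave 5661 to 8624 higher and 1868 to 2999 lower. Of the machinery, the count of genes called lower went from 0 to 1 (DCL1) after rescaling, after rescaling with the replicate block, under quantile normalization and with a mean FPKM of at least 5. The log2 fold change of DCL1 in these was -0.62, -0.62, -0.59 and -0.24 (limma, adjusted p = 0.00317, 0.00166, 0.00361 and 0.0456); the last tests fewer annotations. The count called higher was 9 and lay between 6 and 9 over the alternatives that kept all 4 libraries. It was 6 at a mean FPKM of at least 5, where AGO7, HEN1 and HST were not tested. There, 6871 of 13280 tested annotations were higher and 2619 lower. It was also 6 under quantile normalization, beside 5770 higher and 5243 lower of 17967 annotations. AGO7 was at 0.24 after rescaling, at 0.24 after rescaling with the replicate block and at -0.01 under quantile normalization, SE at 0.27 after rescaling, and under quantile normalization HST was at 0.28 and SGS3 at 0.37; the cause was not tested. With 1 library left out, the log2 fold change ran from 0.59 to 0.73 for SE, from 0.42 to 0.58 for AGO7 and from 0.72 to 1.00 for RDR6, and the lone library is then assumed to vary like the others. The replicate block alone left 9 genes of the machinery higher and 0 lower, with adjusted p = 0.0578 for DCL1 (limma), and changed no call among the 10 genes.

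Some signs turned among the other named genes. After rescaling, and equally after rescaling with the replicate block, the log2 fold change was -0.01 for DRB2, -0.29 for CPL1, -0.30 for CPL2, -0.13 for MOS2, -0.13 for NOT2B, -0.09 for SUO, -0.28 for URT1, -0.15 for SDE5, -0.06 for DCP2, -0.20 for MIR838 and -0.11 for ARF2. Quantile normalization gave -0.37 for CPL1, -0.31 for CPL2, -0.09 for NOT2B, -0.01 for RCF3, -0.38 for SDE5, -0.04 for TAS1B, -0.09 for TAS1C and -0.31 for MIR838. CPL2 was called lower under each of these settings, and CPL1 under quantile normalization and after rescaling with the replicate block. With 1 library left out the range was -0.02 to 0.14 for CPL1, -0.70 to 0.05 for HSP90.1, -0.09 to 0.03 for TRN1, -0.04 to 0.29 for URT1 and -0.36 to 0.64 for MIR838. The ratio of DCL1 to DCL4 changed by -2.37 on the log2 scale, and by -2.07 with a pseudocount of 1. Without read numbers, the depth that limits the low values (AGO7, HEN1 and the precursors) is unknown.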

Other observations

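Among the remaining relatives, RDR3 had 3.56 and 3.60 FPKM in dividing tissue, against 0.257 and 0.43 FPKM in non-dividing tissue, and RDR4 had 1.94 and 1.46 FPKM in dividing tissue and was listed at 0 in both non-dividing libraries. AGO3, the neighbour of AGO2, had 0.194 and 0.306 FPKM in dividing tissue, against 0.66 and 1.16 FPKM in non-dividing tissue. It was below the filter and so not tested in the main fit. Without the filter, 16 relatives were called higher and 1 lower (limma), beside 10225 and 3389 of 21017 tested annotations. AGO5 and AGO9, known from reproductive tissue, were at 0.342 and 0.402 FPKM and at 0.614 and 0.485 FPKM in dividing tissue and listed at 0 in non-dividing tissue, and AGO8 was listed at 0 in all 4 libraries. These genes were chosen after their values were seen.

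The genes from which the transgenes were made differed between the lines. HTR5 had 1315 FPKM in dividing and 772 FPKM in non-dividing tissue of the HTR5-GFP line, and 644 and 351.4 FPKM in the HTR13-GFP line. HTR13 had 16.4 FPKM in dividing and 4.38 FPKM in non-dividing tissue of the HTR5-GFP line, and 116 and 178.5 FPKM in the HTR13-GFP line.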
